A study of Mus musculus with 6 samples.

Results

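Collagens are the main structural proteins of the extracellular matrix, and the genes described here are the 43 collagen chain genes that the array names, together with 10 genes of stromal cells and their matrix (Thy1, Pdgfra, Pdgfrb, Sparc, Dcn, Lum, Fn1, Fbn1, Bgn and Postn), 53 genes of 27361 gene names in all. They were chosen by gene symbol. The brightest probe of each gene was used, and a gene was tested when the scanner software marked that probe as well above background on 2 or more arrays. That left 43 of the 53 genes (33 collagens), of 19044 genes tested on the array, and 32 of them were well above background on all 6 arrays. The set was proposed with the differences between genotypes already known, so those differences are given as a description and nothing is read from them.

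The samples were bone marrow derived macrophages of C57BL/6 mice, cultured over 7 days with L929-conditioned medium at 10%. Control cells (WT) were FoxO1 Fl/Fl, with loxP-flanked Foxo1 alleles and no Cre, and knockout cells (KO) were LysMcre FoxO1 Fl/Fl, in which Cre is driven by the lysozyme M locus that is active in myeloid cells. Cells of each genotype were left unstimulated (M0), treated for 24 h with 100 ng/ml LPS and 20 ng/ml IFN-γ (M1), or treated for 24 h with 10 ng/ml IL-4 and 10 ng/ml IL-13 (M2). Each of the 6 groups was measured on 1 single-colour array, so the groups have no replicates, and the labels do not say whether the cultures came from separate animals. Because only the KO mice carry Cre, Cre and the loss of Foxo1 cannot be told apart.

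Collagen chains assemble into triple helices in which every turn of the repeat Gly-X-Y places a glycine in the centre of the rope. Chains of types I, III and V form the banded fibrils of connective tissue and are made mainly by fibroblasts, bone marrow stromal cells and other mesenchymal cells, type IV forms the sheets of basement membranes, and type VI forms beaded filaments around cells. Macrophages are known mainly for degrading collagen and for signalling to the cells that lay it down, although they transcribe some collagen and matrix genes themselves, among them fibronectin after IL-4.

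The repeat can be read in the array's own probes. A glycine codon (GG followed by any base) recurred every 9 bases along the whole probe in 3 of 85 collagen probes and in 0 of 41052 other probes. These probes, of 60 bases each, are shown with the glycine codons in capitals because they lie in the coding stretch of the triple helix, where related chains resemble each other, and because their readings differed from those of the brightest probe of the same gene (given with each gene below).
Col5a1 probe: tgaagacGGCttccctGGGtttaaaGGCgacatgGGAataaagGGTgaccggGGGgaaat
Col5a3 probe: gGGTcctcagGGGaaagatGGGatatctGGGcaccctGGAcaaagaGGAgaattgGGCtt
Col11a2 probe: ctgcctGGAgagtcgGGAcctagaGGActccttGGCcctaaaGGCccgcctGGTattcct
The files place them on mouse build mm9 at chr2:27842243-27844666 (plus strand), chr9:20590066-20590795 (minus strand) and chr17:34189287-34189453 (plus strand), intervals longer than the probes themselves. None of the 3 was the brightest probe of its gene.

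Upstream sequence is shown for a pair of fibrillar collagen genes, since the missing factor binds DNA. At their brightest probes both had lower signal on the KO array in each state. The windows hold the 250 bases before the RefSeq start on GRCm38.p6, at chr6:4505368-4505617 for Col1a2 and chr1:45311288-45311537 for Col3a1, both on the plus strand. Capitals mark the letters of 4 motifs searched on both strands, the FoxO core GTAAACA, the TATA motif TATAAA, the CCAAT motif CCAAT and the GC box GGGCGG.
Col1a2 upstream: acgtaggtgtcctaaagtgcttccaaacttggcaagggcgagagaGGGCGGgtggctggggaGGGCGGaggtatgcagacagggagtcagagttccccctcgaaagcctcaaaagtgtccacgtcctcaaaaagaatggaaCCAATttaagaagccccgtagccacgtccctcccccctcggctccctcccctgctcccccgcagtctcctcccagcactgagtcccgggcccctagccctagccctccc
Col3a1 upstream: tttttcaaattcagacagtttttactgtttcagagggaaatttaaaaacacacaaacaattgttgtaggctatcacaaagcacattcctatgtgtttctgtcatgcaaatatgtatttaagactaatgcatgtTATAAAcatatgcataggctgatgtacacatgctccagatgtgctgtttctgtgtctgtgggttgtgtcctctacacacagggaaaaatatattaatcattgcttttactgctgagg
The Col1a2 window held 2 GC boxes and 1 CCAAT motif, the Col3a1 window held 1 TATA motif, and neither held the FoxO core letters. RefSeq windows were found for 40 of the 53 genes (44 windows). The FoxO core was present in 1 of these 44 windows (2.27%), that of Col6a1, beside 3.17% of all 32851 windows. The TATA motif was in 13.6% of the genes' windows beside 12.4% of all, CCAAT in 29.5% beside 33.8%, and the GC box in 54.5% beside 32.7%. A match is a description of the letters and not a binding site.

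Levels below are log2 values of the processed signal, less the 75th percentile of the same array, so that 0 is the signal at that percentile (532 to 628 scanner units). Differences are on the same log2 scale, and values for a genotype are always listed in the order M0, M1 and M2. The Foxo1 probe itself read 1.5, 0.96 and 1.5 on the WT arrays and -1.42, -1.81 and -1.16 on the KO arrays, a difference of -2.78 ± 0.13 (SE), in the direction of the labels, but the files do not say whether the probe lies in the deleted part of the gene. Macrophage markers were present on each array: 9 of 10 were well above background on all 6 arrays, and Csf1r, the receptor for the macrophage growth factor, read between 5.38 and 7.29. Sets of arrays stood apart in 2 ways. The WT M0 and WT M1 arrays were on 1 slide and the other 4 on a second slide, so that KO and WT were compared within a slide in M2 but across slides in M0 and M1, while M1 and M0 were compared within a slide in each genotype. On the WT M0 array, in addition, the summed signal of 17 hepatocyte markers was 40.05 times the array's 75th percentile, beside 0.386 to 2.07 on the other 5 arrays, with albumin (Alb) at a level of 3.49 there and at -2.36 or less elsewhere. Summed signal of 14 neutrophil markers was 83.3 on WT M0, 14.5 on WT M1 and 26.99 on WT M2, against 15.4, 9.39 and 6.88 on the KO arrays. In these bulk samples fewer cells of a type and less RNA per cell cannot be told apart.

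At their brightest probes, the fibrillar collagens of types I, III and V had lower signal on the KO array than on the WT array in every state. For Col5a3 neither M2 array was well above background. Of the tested genes, 9 had a second probe well above background on all 6 arrays. In 3 of these 9 (Col6a4, Fbn1 and Col18a1) it kept the brightest probe's direction in all states. Signal was lower on the KO array in all 3 states for 18 of the 43 tested genes, beside 15.1% of all tested genes, and higher in all 3 for 5, beside 22.1%. Among the 32 genes well above background on every array the count was 13, beside 16.2%. The 3 genes at least 2-fold lower in every state, beside 0.202% of all genes, were Col1a1, Col3a1 and Col5a1. For M0, M1 and M2 in that order, the median difference over the 43 genes came to -0.63, 0.07 and -0.59, beside 0.11, 0.13 and -0.05 over all tested genes. Over the 11 fibrillar collagens the medians were -1.4, -0.70 and -0.80.

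**Figure D1:**
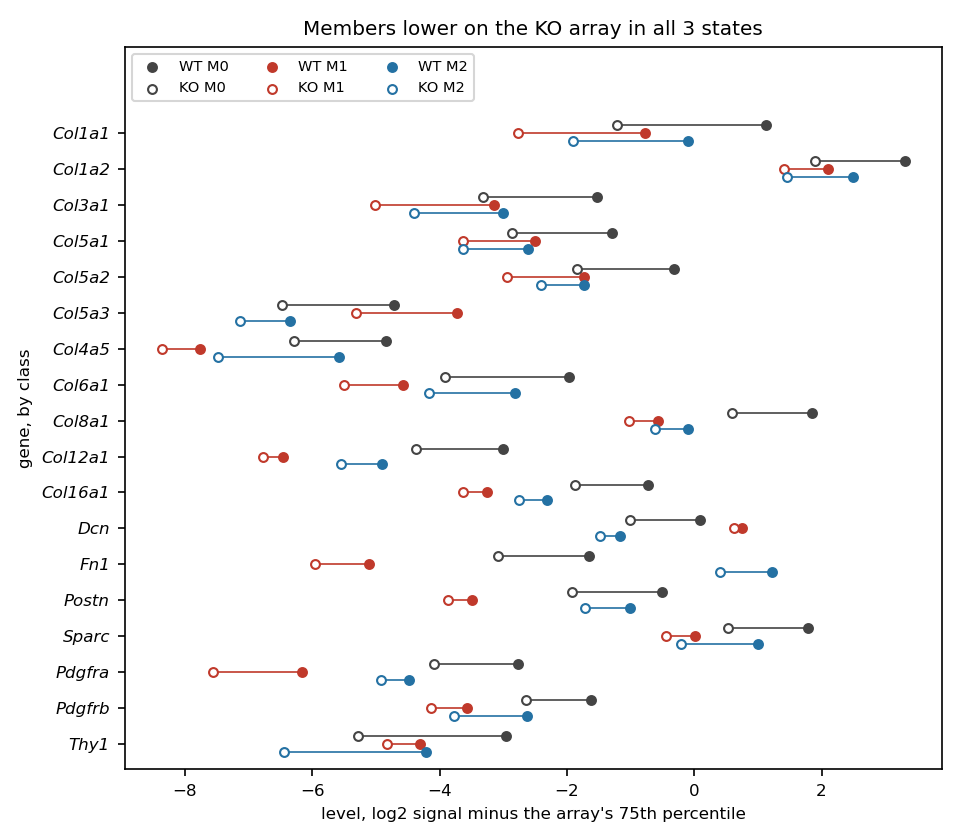
Level (log2 signal minus the array's 75th percentile, x axis) on each array of the 18 genes that were lower on the KO array in all 3 states, grouped by class; filled points are WT, open points KO, colours give the state, and each point is 1 array, also where a probe was not well above background (Col12a1, Col4a5, Col5a3, Pdgfra and Thy1 on 1 or more arrays). In all 18 rows each open point lies left of the filled point of its colour, with the widest gaps for Col1a1 (-2.34 in M0) and Thy1 (-2.32 in M0).

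Col1a1 and Col1a2 encode the chains of type I collagen, the main protein of bone, skin and tendon. Col1a1 levels were 1.13, -0.77 and -0.097 on the WT arrays and -1.22, -2.77 and -1.91 on the KO arrays. The lowest WT value, after M1 treatment, was above the highest KO value, that of M0, and the mean difference over states was -2.05 ± 0.16 (SE). Col1a2 levels were 3.31, 2.1 and 2.5 on the WT arrays and 1.9, 1.4 and 1.46 on the KO arrays, again without overlap between genotypes, with differences of -1.4, -0.70 and -1.04. Both chains of type I were thus highest on WT M0 and lower on each KO array than on any WT array. A second Col1a1 probe, well above background on 5 arrays, gave differences of -1.73, -1.91 and -1.55, and a further probe, well above background on all 6 arrays, gave -0.33, 0.64 and -0.77. With the mean over all probes the genotype difference of Col1a1 was -1.31.

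Col3a1 encodes type III collagen, the chain of reticular fibres in marrow, spleen and vessel walls. Its levels were -1.53, -3.14 and -3.01 on the WT arrays and -3.32, -5.01 and -4.4 on the KO arrays, with differences of -1.78, -1.87 and -1.39. WT arrays again all lay above KO arrays at this probe. A second Col3a1 probe, well above background on 4 arrays, was higher on KO in each state (0.94, 0.89 and 0.14), and with the mean over all probes in place of the brightest the genotype difference of Col3a1 was -0.34 in place of -1.68. Col5a1 and Col5a2 encode type V chains, which start fibrils and set their width. Col5a1 read -1.3, -2.5 and -2.62 on the WT arrays and -2.87, -3.63 and -3.64 on the KO arrays, and Col5a2 read -0.31, -1.74 and -1.73 on the WT arrays and -1.84, -2.94 and -2.41 on the KO arrays. Neither gene's genotypes overlapped. For Col5a1 this held at the brightest probe, while the triple helix probe printed above read -5.39, -5.16 and -4.74 on the WT arrays and -4.62, -4.31 and -4.55 on the KO arrays and so was higher on KO in each state (0.77, 0.85 and 0.19). The mean over all Col5a1 probes gave a genotype difference of -0.32 in place of -1.24.

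Col5a3, a further type V chain, was well above background on WT M0, WT M1 and KO M1 only. It was at least 3.38-fold lower on KO in M0, and in M1 it read -3.73 in WT and -5.31 in KO. Its triple helix probe gave differences of -0.04, 1.22 and -0.48. Col24a1, a minor fibrillar chain, went the other way: it read -3.82, -7.12 and -5.06 on the WT arrays and -3.14, -5.53 and -2.96 on the KO arrays, was well above background everywhere but on WT M1, and was higher on KO by 0.68 in M0 and 2.09 in M2. The cartilage chains Col2a1, Col11a1 and Col11a2 differed by -0.98 to 0.55 with no common sign, and the triple helix probe of Col11a2 gave 0.95, 0.60 and -0.80.

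The 6 genes whose WT arrays were all above their KO arrays (1.45% of all tested genes) were Col1a1, Col1a2, Col3a1, Col5a1, Col5a2 and Thy1. In the fit over all 6 arrays (limma, states and genotype as additive terms) no gene on the array passed an adjusted p of 0.05 for genotype, so the calls were 0 of 43 beside 0% of all genes, and the smallest adjusted p was 0.304. At an unadjusted p under 0.05, 17 of the 43 were lower on KO, beside 4.47% of all tested genes, and 4 were higher, beside 6.86%. Since the set was proposed with these differences known, these counts and those under other settings are a description and not a test of the set. For the other settings the share of all tested genes was not counted, so their counts have no background beside them. The median genotype difference over all genes was 0.09 in the main fit, -0.001 with median centring and 0.16 with normexp background correction. The 17 became 19 with median centring, 18 with quantile normalization or the authors' table and 16 with an intensity trend. It became 15 with normexp after outlier backgrounds were replaced, and 12 of 32 with the filter on all 6 arrays. With the slide as a block, the genotype difference is that of the M2 pair of arrays alone. The 17 became 8 without the WT M0 array or without the KO M0 array, 10 with the slide as a block, 9 with the mean over all probes and 5 with normexp background correction.

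Of the basement membrane collagens, Col4a2, Col4a4 and Col4a6 were lower on the WT M0 and M1 slide at their brightest probes, as were 18.8% of all tested genes. Col4a2, whose chain pairs with that of Col4a1, read -3.03, -3.4 and 0.27 on the WT arrays and -0.63, -0.37 and -0.90 on the KO arrays at its brightest probe. Both arrays of the WT M0 and M1 slide were thus low and the other 4 high. The other Col4a2 probe, also well above background on all arrays, read -2.33, -2.93 and -4.20 on WT and -3.77, -2.60 and -5.19 on KO, without that split. Col4a4 and Col4a6 followed the slides too, with differences of 1.09, 1.09 and -0.51 and of 0.86, 0.96 and -0.44. Another Col4a6 probe, well above background on 2 arrays, gave -1.34, -0.08 and -3.01. Col4a1 differed by -0.99, 0.29 and -0.58 at the brightest probe and by -1.64, -1.24 and -0.86 at the second, and Col4a5 was at least 2.73-fold lower on KO in M0 and at least 1.67-fold lower in M2.

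Signal was lower on both arrays of the WT M0 and M1 slide than on all 4 others for 8 of the 43 genes, beside 18.8% of all tested genes: Col11a1, Col23a1, Col25a1, Col4a2, Col4a4, Col4a6, Col6a4 and Col9a2. It was higher on both for 2, Col5a1 and Col5a3, beside 2.76%. Over all probes well above background on all 6 arrays, the median of KO minus WT rose with the share of G and C in the probe across slides, from -0.01 at up to 35% to 0.64 above 60% in M0 and from 0.03 to 0.75 in M1, and fell within the slide in M2, from 0.09 to -0.55. Probes of the 18 genes lower on KO in all states held 36.7% to 53.3% G and C (median 43.3%), and those of the 8 genes above 38.3% to 55% (median 48.3%). The part of the slide and of base composition in the differences was not tested gene by gene. With each array centred within bins of probe base composition, 20 genes of the set were lower on KO in all 3 states. The medians of KO minus WT over all tested genes were then 0.11, 0.07 and 0.01. The share of all genes lower in all 3 states was not counted for that centring, so the 20 has no background beside it.

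**Figure D2:**
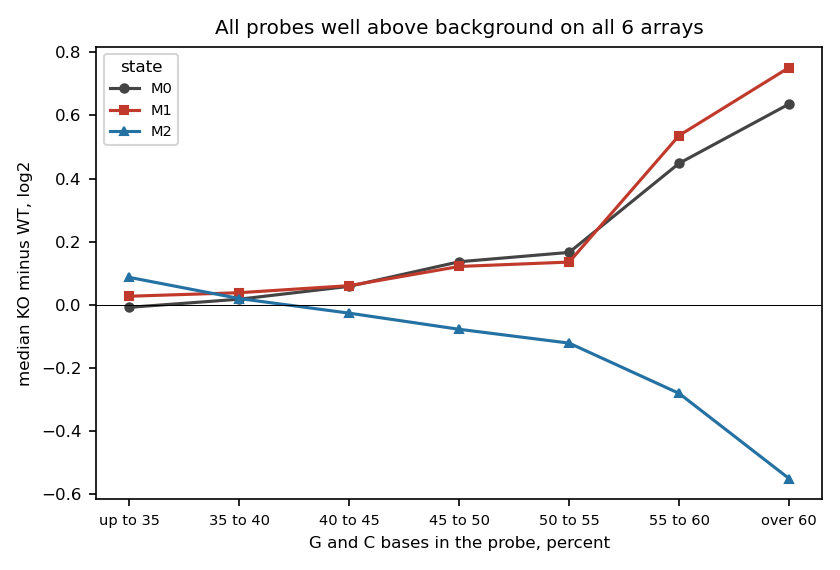
Median KO minus WT difference (log2, y axis) in M0, M1 and M2 by the percentage of G and C bases in the probe (x axis), over all probes well above background on all 6 arrays; each point is the median of 1 bin. The M0 and M1 lines reach 0.64 and 0.75 in the highest bin, where the M2 line reaches -0.55.

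Type VI collagen is built from the chains of Col6a1, Col6a2 and Col6a3. Col6a1 read -1.97, -4.57 and -2.82 on the WT arrays and -3.91, -5.5 and -4.16 on the KO arrays, with differences of -1.94, -0.92 and -1.34. The genotypes overlapped, since the WT M1 value lay below the KO values in M0 and M2. Col6a3 differed by -2.02, 0.42 and -1.4, and Col6a2 by 0.48, -0.074 and -2.23. The 3 chains of this protein thus shared a lower KO value in M2, the state compared within a slide. The median over all tested genes was -0.05 in M2, and in M0 and M1 the signs of the 3 chains differed.

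Col8a1, a short network-forming chain of vessel walls, read 1.85, -0.57 and -0.096 on the WT arrays and 0.59, -1.02 and -0.61 on the KO arrays. A second Col8a1 probe, well above background on 5 arrays, differed by -0.89, 0.82 and -0.38. Col7a1, the anchoring fibril collagen of skin, was higher on KO in each state and read -2.53, -1.82 and -1.9 on the WT arrays and -2.05, -1.09 and -1.0 on the KO arrays. Of the fibril-associated chains, which decorate fibrils, Col16a1 read -0.72, -3.26 and -2.32 on the WT arrays and -1.88, -3.63 and -2.76 on the KO arrays and Col12a1 read -3.0, -6.46 and -4.9 on the WT arrays and -4.36, -6.77 and -5.55 on the KO arrays, with both M1 arrays not well above background. Higher on KO in each state were Col20a1, with differences of 0.47, 0.43 and 0.92, and Col9a2, at -2.6, -2.67 and -2.26 on the WT arrays and -1.99, -2.01 and -2.12 on the KO arrays. Among the others, Col9a3, Col19a1 and Col22a1 differed by -0.63 to 0.62 without a common sign. Of the multiplexins, which sit at basement membranes, Col15a1 read -5.46, -8.57 and -7.04 on the WT arrays and -4.71, -8.34 and -6.07 on the KO arrays and was well above background on WT M0, KO M0 and KO M2, and Col18a1, whose end is released as endostatin, differed by -0.29, 0.42 and -0.33. The transmembrane chains Col23a1 and Col25a1 were among the genes that followed the slides.

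Decorin (Dcn), a proteoglycan that binds fibrils, read 0.095, 0.75 and -1.17 on the WT arrays and -1.02, 0.62 and -1.48 on the KO arrays, and biglycan (Bgn), its relative, differed by -0.63, 0.51 and 0.099. Fibronectin (Fn1), which cells deposit as a scaffold for collagen, read -1.65, -5.11 and 1.22 on the WT arrays and -3.08, -5.95 and 0.41 on the KO arrays. Sparc, a collagen-binding glycoprotein, read 1.79, 0.019 and 1.0 on the WT arrays and 0.52, -0.44 and -0.21 on the KO arrays, and periostin (Postn), which is secreted by fibroblasts, read -0.51, -3.48 and -1.01 on the WT arrays and -1.92, -3.87 and -1.72 on the KO arrays. In all of these KO was below WT in each state except for biglycan, and genotypes overlapped across states. A second Sparc probe gave differences of -1.57, 0.25 and -0.76, and the other Fn1 probes, each well above background on 4 arrays, gave -0.75, 0.51 and -0.89 and -1.01, 0.07 and -0.72. Fibrillin 1 (Fbn1), of elastic microfibrils, differed by -1.57, 0.073 and -0.69.

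The surface receptors that mark fibroblasts and pericytes were lower on KO as well. Pdgfrb, the PDGF receptor of pericytes, read -1.61, -3.57 and -2.63 on the WT arrays and -2.64, -4.13 and -3.78 on the KO arrays. Pdgfra, that of fibroblasts, read -2.77, -6.17 and -4.49 on the WT arrays and -4.09, -7.56 and -4.93 on the KO arrays and was not well above background on KO M1. Thy1 read -2.96, -4.31 and -4.22 on the WT arrays and -5.28, -4.83 and -6.44 on the KO arrays; it was at least 4.31-fold lower on KO in M2, where the KO array was not well above background.

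**Figure D3:**
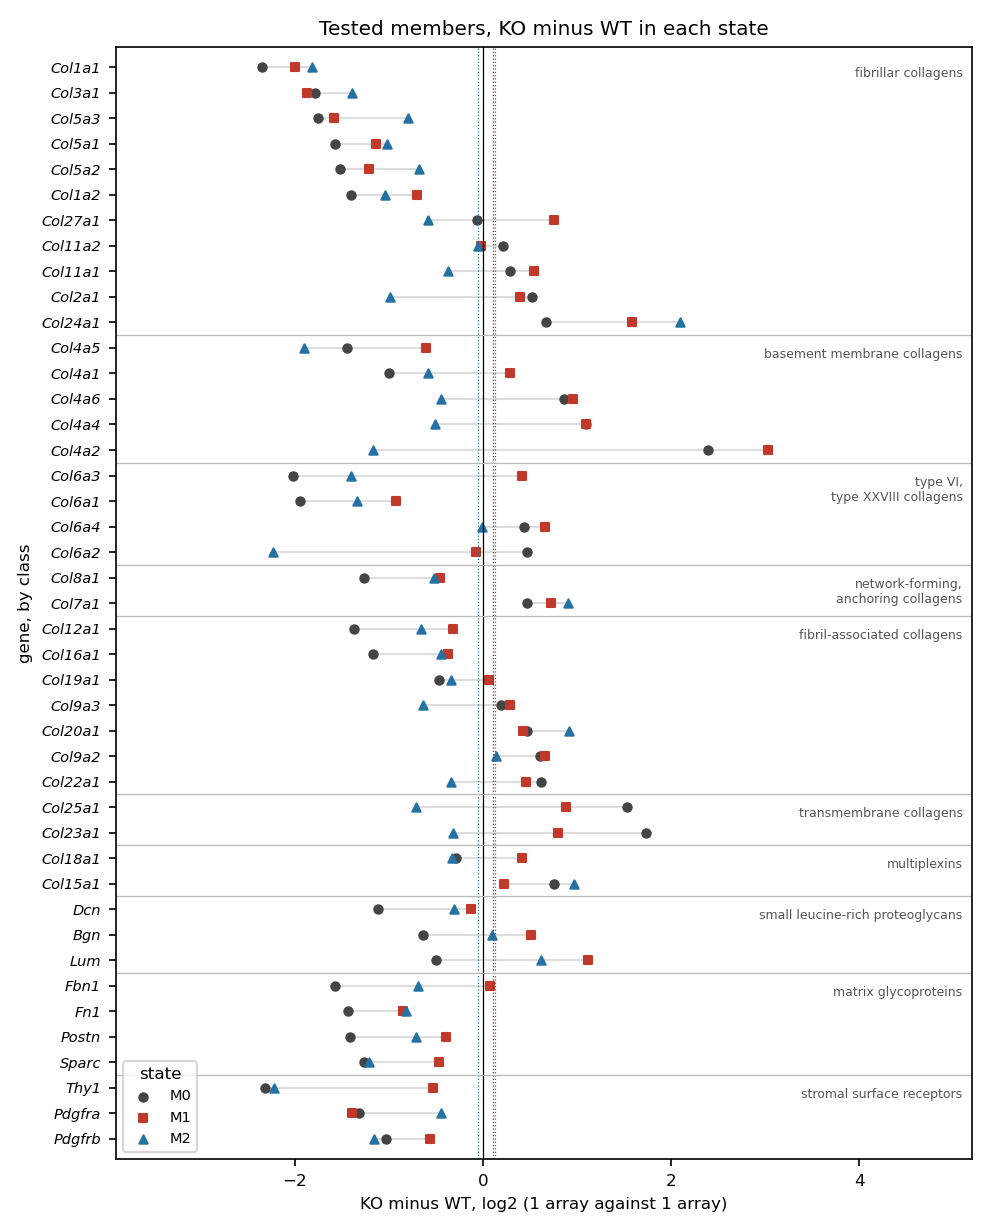
KO minus WT (log2, x axis, 1 array against 1 array) for the 43 tested genes by class, with circles for M0, squares for M1 and triangles for M2; dotted lines are the medians of all tested genes in each state. Col1a1, Col3a1 and Col5a1 lie left of -1 in each state, while Col4a2 reaches 3.03 in M1 and -1.17 in M2.

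At least 2-fold lower on KO were 20 of 43 genes in M0 (beside 4.22% of all tested genes), 6 in M1 (1.69%) and 12 in M2 (4.91%). The WT M0 array was at least 2-fold above every other array for 11 genes: Col12a1, Col16a1, Col1a1, Col3a1, Col5a1, Col5a2, Col6a3, Col8a1, Pdgfra, Pdgfrb and Thy1. That was 25.6% of the set, beside 1.54% of all tested genes, and the same array carried the hepatocyte and neutrophil signal. Without the WT M0 array, 20 genes were lower on KO in both M1 and M2, beside 21.4% of all tested genes, and the median of the genotype difference over the 43 genes was -0.22 in place of -0.43. The part of the other cells' signal in the result was not tested.

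Genes at the edge of detection show what the rule keeps and leaves. Just inside, on 2 arrays each, were Col27a1, Col4a5 and Lum. Col27a1 read -8.52, -6.38 and -5.68 on the WT arrays and -8.57, -5.62 and -6.26 on the KO arrays, and WT M2 and KO M1 were above the limit. Col4a5 read -4.84, -7.76 and -5.58 on the WT arrays and -6.29, -8.37 and -7.48 on the KO arrays, above it on WT M0 and WT M2. Lumican (Lum), a fibril-binding proteoglycan, read -6.31, -6.15 and -6.7 on the WT arrays and -6.81, -5.04 and -6.07 on the KO arrays, above it on KO M1 and KO M2. Just outside, on 1 array each, were Col6a5 and Col9a1. Col6a5 read -8.59, -8.44 and -8.46 on the WT arrays and -8.61, -5.57 and -8.5 on the KO arrays, above the limit on KO M1, and Col9a1 read -5.99, -6.93 and -7.76 on the WT arrays and -7.49, -7.56 and -6.75 on the KO arrays, above it on WT M0. On no array were Col10a1, Col13a1, Col14a1, Col17a1, Col28a1, Col4a3, Col6a6 and Col8a2 well above background, and their levels lay between -8.66 and -6.28.

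After LPS and IFN-γ, fibronectin, both PDGF receptors, periostin, Sparc and 12 collagen chains fell. Against M0, 17 of 43 were called lower and 4 higher (limma over all 6 arrays, adjusted p at most 0.05 over all genes), beside 14% of all tested genes lower and 11.6% higher. The M1 and M0 arrays of each genotype shared a slide, and with the slide as a block 17 were called lower and 6 higher. Fits that left out any M0 or M1 array called 0 of all genes. In those fits only 1 genotype held both an M0 and an M1 array. These calls are the fit's, over cultures that may not be independent. Each group held 1 array, so the spread behind each SE and p is not that of replicates. It holds array noise together with genotype differences that vary between states. The list of neutrophil markers moved with them, with 5 of 14 called lower in M1 and 1 higher. Hepatocyte markers had a median M1 change of -6.98 in WT, where the M0 array carried their signal, and of 1.97 in KO. Over the 43 genes the median M1 change was -1.1 in WT and -0.50 in KO, beside 0.02 and 0.06 over all tested genes. The part of these other markers and of the WT M0 array in the result was not tested.

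Fibronectin fell, at -3.17 ± 0.23 (SE; adjusted p = 0.00818), and so did Pdgfra, at -3.44 ± 0.31 (SE; adjusted p = 0.00998) and by at least 3.94-fold in KO, where the M1 array was not well above background. Their levels on each array, given above, were lowest on the M1 arrays of both genotypes. Periostin changed by -2.47 ± 0.30 (SE; adjusted p = 0.0157), Sparc by -1.37 ± 0.27 (SE; adjusted p = 0.0377) and Pdgfrb by -1.72 ± 0.22 (SE; adjusted p = 0.0162). Decorin, in contrast, differed by 1.15 ± 0.30 (SE; adjusted p = 0.0672) and Thy1 by -0.45 ± 0.53 (SE; adjusted p = 0.589), neither called. The type I chain Col1a1 fell, at -1.73 ± 0.20 (SE; adjusted p = 0.0143), whereas Col1a2 differed by -0.85 ± 0.23 (SE; adjusted p = 0.0708) and was not called.

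Among other fibrillar chains Col3a1 changed by -1.65 ± 0.20 (SE; adjusted p = 0.0149), Col5a1 by -0.98 ± 0.21 (SE; adjusted p = 0.0434) and Col5a2 by -1.27 ± 0.26 (SE; adjusted p = 0.0405). The Col5a1 call was lost under 8 of the alternative settings, leaving out arrays aside, with both other between-array scalings among them (adjusted p 0.107 with median centring and 0.0579 with quantile normalization), and with the mean over all probes Col3a1, Col11a2, Col24a1 and Postn lost theirs as well. Col24a1 changed by -2.84 ± 0.39 (SE; adjusted p = 0.0192), at least 5.99-fold lower in WT, where the M1 array was not well above background. Col11a2, which read -1.85, -3.05 and -1.77 on the WT arrays and -1.63, -3.07 and -1.82 on the KO arrays, changed by -1.32 ± 0.17 (SE; adjusted p = 0.0161).

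Away from the fibrillar chains, Col12a1 fell at least 10.6-fold in WT and at least 3.25-fold in KO, from levels of -3.0 and -4.36 in M0. Col15a1 fell at least 1.93-fold and 2.56-fold, and Col4a5 at least 2.95-fold in WT, with no fold for KO, where neither array was well above background. Col8a1 changed by -2.01 ± 0.27 (SE; adjusted p = 0.0185), Col16a1 by -2.15 ± 0.27 (SE; adjusted p = 0.0161) and Col6a1 by -2.09 ± 0.30 (SE; adjusted p = 0.0201). The 4 genes of the set that rose were Col22a1, Col20a1, Col7a1 and Col27a1, of which Col27a1 is a fibrillar chain. Col22a1, a chain of tissue junctions, read -4.93, -2.24 and -3.93 on the WT arrays and -4.31, -1.78 and -4.26 on the KO arrays and changed by 2.61 ± 0.30 (SE; adjusted p = 0.0139). Col20a1 read -3.04, -1.47 and -3.59 on the WT arrays and -2.58, -1.04 and -2.67 on the KO arrays and changed by 1.55 ± 0.20 (SE; adjusted p = 0.0173), and Col7a1 by 0.84 ± 0.18 (SE; adjusted p = 0.0466). Col27a1 rose at least 2.01-fold in KO, while in WT neither array was well above background.

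**Figure D4:**
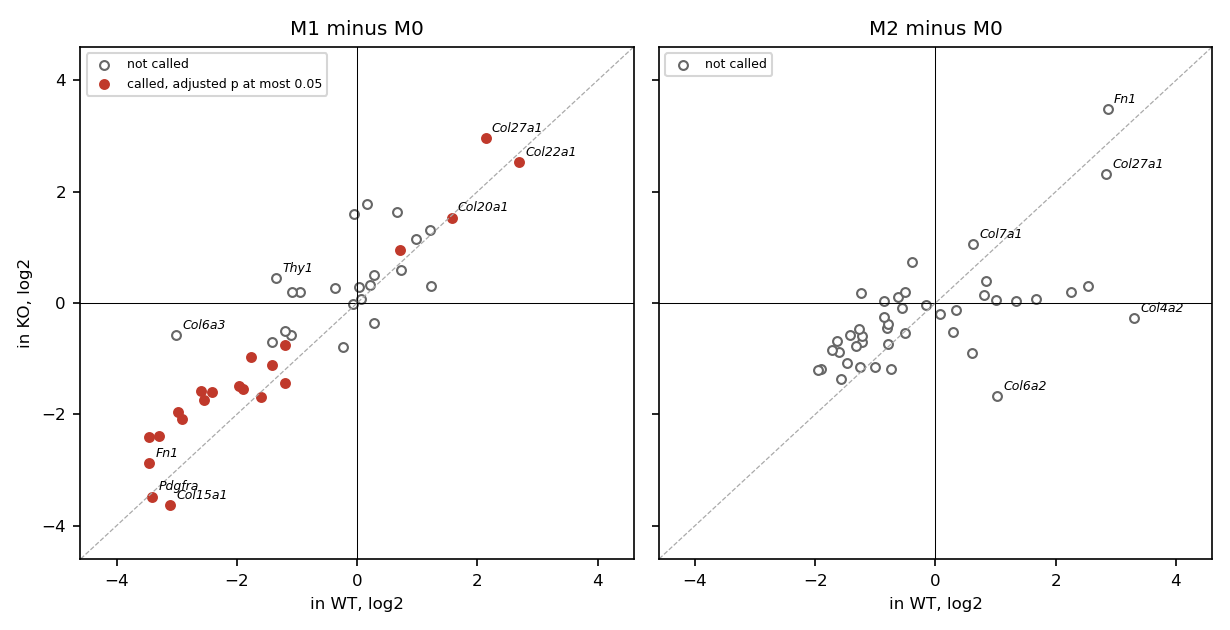
Change from M0 in WT (x axis) and in KO (y axis), log2, 1 array against 1 array, for the 43 tested genes after M1 (left) and M2 (right) treatment; filled points passed limma's adjusted p of 0.05 over both genotypes and the dashed line marks equal change. In M1 the called genes lie in the lower left and upper right. Of those in the lower left, all but Col11a2, Col15a1, Col3a1 and Pdgfra lie above the dashed line, with a smaller fall in KO than in WT. In M2 Fn1 stands at the upper right, while Col4a2 and Col6a2 have WT and KO values of opposite sign.

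After IL-4 and IL-13 no gene of the set was called: 0 of 43 lower, beside 0.021% of all tested genes, and 0 higher, beside 0.0788%. At an unadjusted p under 0.05 in limma, 12 were lower, beside 9.45% of all genes, and 3 higher, beside 9.67%. The 12 were Col12a1, Col15a1, Col16a1, Col1a1, Col3a1, Col5a1, Col5a2, Col5a3, Col8a1, Dcn, Pdgfra and Pdgfrb, and the 3 were Fn1, Col7a1 and Col27a1. Fibronectin differed by 3.17 ± 0.23 (SE; adjusted p = 0.0579), from -1.65 to 1.22 in WT and from -3.08 to 0.41 in KO, and Col3a1 by -1.28 ± 0.20 (SE; adjusted p = 0.106). Fibronectin thus had its lowest values after M1 treatment and its highest after M2 treatment in both genotypes. In WT the M2 and M0 arrays were on different slides, and in KO on the same slide.

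The genes that process collagen are given from lists that were likewise chosen with earlier results known. Of 20 tested enzymes and chaperones that fold and modify procollagen, 5 were lower on KO in all states and 4 higher. Serpinh1, the collagen chaperone, differed by -1.52, -0.57 and -0.86 and Fkbp10, a further chaperone, by -1.3, -0.49 and -0.70, while Ppib, a prolyl isomerase that helps procollagen fold, differed by 0.38, 0.55 and -0.34. In M1, 6 of the 20 were called lower, with Leprel2 at -3.01 ± 0.35 (SE; adjusted p = 0.0143), Serpinh1 at -2.32 ± 0.29 (SE; adjusted p = 0.0161) and Fkbp10 at -2.13 ± 0.26 (SE; adjusted p = 0.0155), and P4ha1 was called higher at 1.48 ± 0.18 (SE; adjusted p = 0.0161).

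Of 10 tested genes of procollagen processing and crosslinking, 7 were lower on KO in all states and 1 was higher. Lysyl oxidase (Lox) differed by -1.77, -0.61 and -0.56, Adamts2, which trims procollagen, by -1.35, -0.84 and -0.63 and Loxl1 by -1.31, -1.2 and -0.83. In M1, 4 were called lower, with Loxl1 at -1.96 ± 0.20 (SE; adjusted p = 0.0115), and the transglutaminase Tgm2 was called higher at 2.29 ± 0.15 (SE; adjusted p = 0.00775). Among 42 tested other matrix genes 23 were lower on KO in all states and 3 higher, with Mgp, which inhibits calcification, at -2.34, -0.95 and -1.26 and Fbln2 at -1.29, -1.11 and -0.99. In M1, 17 of the 42 were called lower and 4 higher, the proteoglycan Vcan among the latter at 3.55 ± 0.37 (SE; adjusted p = 0.012). These counts, and those of the lists that follow, stand beside 15.1% of all tested genes lower and 22.1% higher on KO in all states, and beside 14% called lower and 11.6% called higher in M1.

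Collagen receptors showed 4 of 12 tested genes lower on KO in all states and 3 higher. The collagen-binding integrin chain Itga11 differed by -1.23, -0.15 and -1.27 and the discoidin receptor Ddr2 by -1.01, -0.059 and -0.55. In M1 6 were called lower and 1 higher, with the collagen uptake receptor Mrc1, which macrophages carry, at -5.49 ± 0.33 (SE; adjusted p = 0.00716). Of 19 tested PDGF and TGF-β ligands, receptors and mediators 4 were lower on KO in all states and 2 higher. In M1 7 were called lower and 2 higher, and those lower included Tgfb3 at -2.88 ± 0.28 (SE; adjusted p = 0.0112), Pdgfa at -2.74 ± 0.28 (SE; adjusted p = 0.0119) and Pdgfc at -2.74 ± 0.18 (SE; adjusted p = 0.00759).

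Markers of stromal cells outside the set had median KO minus WT differences of -1.03, -0.06 and -0.55. Of 15 tested, 9 were lower on KO in all states and 1 higher, among them Vcam1, an adhesion molecule of marrow stroma, at -1.58, -0.60 and -1.23, and Cxcl12, the chemokine that stromal cells use to hold blood stem cells, at -1.45, -0.80 and -0.72. In M1 8 were called lower and 4 higher, Cxcl12 at -3.4 ± 0.25 (SE; adjusted p = 0.00831) among the lower and Pdpn at 4.28 ± 0.27 (SE; adjusted p = 0.00726) among the higher. Lepr, Meox1 and Mfap5, also on that list, were on no array well above background. The summed signal of the 21 stromal markers was 179, 26.1 and 396 times the 75th percentile on WT and 147, 43.2 and 297 on KO, most of it from S100a4, which macrophages also express.

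Of the other cell types' tested markers, those lower on KO in all states were 3 of 9 for smooth muscle and pericytes, 2 of 9 endothelial, 1 of 4 bone, 2 of 6 adipocyte, 1 of 5 cartilage, 1 of 14 hepatocyte, 2 of 5 hepatic stellate and 7 of 14 neutrophil. Higher on KO in all states were 3 of the adipocyte, 2 of the endothelial and 1 each of the bone, cartilage and stellate markers, and 0 of the smooth muscle, hepatocyte and neutrophil markers. Over all tested genes the shares were 15.1% lower and 22.1% higher. The defining bone genes Bglap, Alpl, Ibsp and Dmp1, the stellate genes Lrat and Gfap, the endothelial gene Tie1 and the muscle gene Des were on no array well above background. Summed signal of the smooth muscle list was 65.6, 66.99 and 39.7 on WT and 37.96, 63.6 and 34.4 on KO. The 53 genes of the set summed to 34.6, 15.6 and 25.6 on WT and to 19.5, 16.1 and 16 on KO. WT M0 was thus the highest array for the set, for the neutrophil list and for the hepatocyte list, and the part of these cells in the set's values was not tested.

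**Figure D5:**
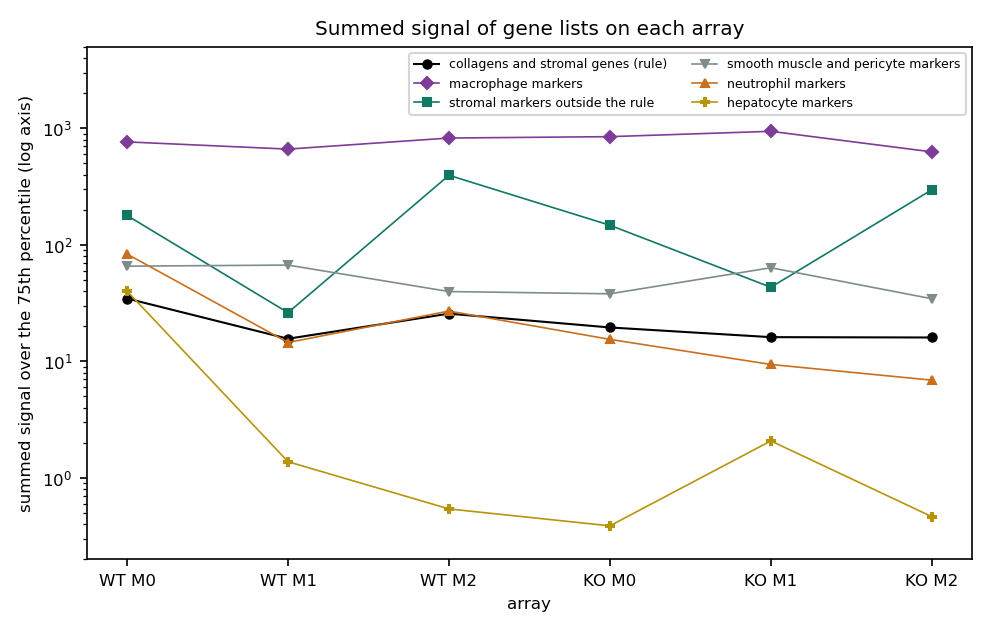
Summed signal over the array's 75th percentile (y axis, log axis) of the 53 genes and of 5 marker lists on each of the 6 arrays (x axis); each point is 1 array and a line is to be read along its own list, not against another. The black line of the 53 genes and the neutrophil line are highest on WT M0 (34.6 and 83.4), and the hepatocyte line falls from 40.1 there to between 0.386 and 2.07 elsewhere.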

How the data were processed

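The 6 arrays were Agilent 4x44K mouse arrays scanned and quantified, per the file headers, in Feature Extraction (release 10.7.3.1). The deposited scanner files hold the processed signal as a linear intensity, background-subtracted and detrended within each array and not scaled between arrays, per the file headers. A deposited value table holds the authors' log2 values, with no statement of how arrays were scaled; its columns correlated best with their own arrays (lowest r = 0.999) and had medians of 5.39 to 5.41. Control spots and spots flagged as outliers (79 to 164 an array) were left out, log2 signals were centred on the array's 75th percentile, spots of a probe were averaged, and the brightest probe stood for a gene. The number of arrays, 1 a group, limits the precision. limma 3.58.1 in R 4.3.3 fitted state and genotype as additive terms over 19044 genes (2 residual degrees of freedom), with p-values adjusted by Benjamini-Hochberg over all of them. The residual behind each SE and p holds array noise and genotype by state differences together, and no spread of replicates. The scripts were tested on simulated data.

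Where a probe was not well above background on 1 side of a comparison, the difference is a bound: the brighter array's level against the higher of the dim probe's own level and the lowest level among probes well above background on that array. The members and gene lists were chosen with earlier results of these data known. Named in full were members well above background on all arrays with 1 direction in all 3 states, members called in limma, and members at the detection threshold; from the lists, genes among the 3 with the largest difference in a direction and contrast, well above background on the arrays compared. Alternatives were median centring, quantile normalization, normexp background correction (offset 50), the authors' deposited table, the mean over probes, other filters, an intensity trend, the slide as a block and leaving out each array; centring by probe base composition and a repaired normexp were added after seeing the data.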

Additional observations from a re-analysis of the deposited data

Results flagged for a closer look

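Col6a2, a type VI collagen chain, was 1.02 higher on the log2 scale after IL-4 and IL-13 than in M0 in WT and differed by -1.68 in KO. It is listed because the sign differs between the genotypes, each with 1 array a state; the difference was not tested. Its levels were -3.66, -3.89 and -2.64 on WT M0, M1 and M2 and -3.18, -3.97 and -4.86 on KO. The other Col6a2 probe, well above background on 1 array, differed between M2 and M0 by -0.22 in WT and -0.07 in KO, with the same sign. The WT pair of arrays lay on different slides and the KO pair on the same slide.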

How the results depend on the processing

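The count of genes lower on KO in every state was 16 to 21 under median centring, quantile normalization, the authors' table, the mean over probes, no filter and base composition centring, and 13 with probes well above background on all arrays. Besides the main setting, the share of all genes was counted for the last of these filters alone (16.2%). An intensity trend called 1 gene lower on KO and, in M2, 1 higher and 1 lower. Median centring called 7 higher in M1 and 2 in M2, and it moved the median M1 change of all genes from 0.03 to 0.26. Quantile normalization, the authors' table, the filter on all 6 arrays and base composition centring each called 1 higher in M2. Without the filter on dim probes the median KO difference in M0 was -0.091. In M1 that median lay between -0.25 and 0.19 over the settings. Normexp as planned gave 0.73 for the M0 median, 0.046 for the median genotype difference and 10 genes lower on KO in every state, and called 4 lower and 0 higher in M1; the genotype difference became 0.091 for Col12a1, 0.25 for Col4a5, 0.19 for Col5a3 and 0.033 for Pdgfra, and the M1 change of Col27a1 became -0.63. On KO M0 a local background of 8160 lay above the highest of the other arrays (47 to 478), and the corrected 5th percentile was 8.13 beside 5.83 to 6.07 elsewhere. With flagged backgrounds replaced by the array median, normexp gave 19 genes lower on KO in every state, 16 called lower in M1, and 1 higher and 1 lower in M2. Leaving out 1 array at a time gave 0 to 17 genes called lower and 0 to 6 called higher in M1, with 0 whenever an M0 or M1 array was left out. Over single genes and settings, 379 values for genotype kept direction and call, 1 became called and 4 reversed; for M1, 231 kept both, 119 lost the call and 1 reversed. KO and WT arrays were compared within states in each fit; replicates could not be matched by number, since each group held 1 array.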
